A study of Rattus norvegicus with 16 samples.

Results

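The genes of cytochrome P450 enzymes, aldehyde dehydrogenases and the conjugating enzymes were examined in PCCl3 cells, a rat (Fischer) follicular cell line that retains thyroid differentiation. Members were the probes of the Agilent rat whole genome array whose RefSeq accession resolved to a rat symbol beginning with *Cyp* and a digit (without *Cyp51*), with *Gsta*, *Gstk*, *Gstm*, *Gsto*, *Gstp* or *Gstt*, or with *Ugt*, *Sult* or *Aldh*. They amounted to 104 of the 8899 genes with a symbol: 55 cytochrome P450 genes, 15 glutathione transferases, 12 aldehyde dehydrogenases, 11 sulfotransferases and 11 UDP-glucuronosyltransferases. They were measured by 120 probes, and 14 of them had more than 1 probe. A further 100 symbols of the reference fit the rule but had no probe and were not analysed here.

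These families make up much of the metabolism of foreign compounds, and also of endogenous steroids, retinoids, fatty acids and thyroid hormones. Cytochrome P450 enzymes insert oxygen into their substrates with electrons passed on by Por or by ferredoxin, and aldehyde dehydrogenases oxidize the aldehydes that arise, among them retinal. Glutathione transferases, UDP-glucuronosyltransferases and sulfotransferases then attach glutathione, glucuronic acid or sulfate, which makes the product soluble and ready for export. Thyroid hormones themselves are substrates of sulfotransferases and glucuronosyltransferases, so part of the set acts on what the thyroid makes.

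Each of 2 comparisons comprised 8 arrays from 4 biological replicates, each replicate hybridized in both dye orientations. Cells in which *Pax8* had been silenced by transient transfection of siRNA (si*Pax8* cells, at 10 ng/ml, with RNA isolated after 48 hours) were set against wild type (wt) cells, or against cells that had received a scrambled siRNA (siScramble cells) at the same concentration. All cells were grown in the same serum-containing medium with TSH, insulin, somatostatin, transferrin, hydrocortisone and glycyl-histidyl-lysine. The sample labels call the condition without siRNA wild type, the methods of the study list cells treated with lipofectamine, and a legend of the study speaks of no transfection. In the ratios against wt cells, effects of the silencing and of the transfection therefore cannot be told apart. According to the study's scheme the si*Pax8* samples of the comparisons were shared, so these are not independent, and no array compared siScramble with wt cells directly.

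The share of spots flagged well above background was 54% to 60.8% per array in Cy3 and 52% to 59.1% in Cy5. *Pax8*, the gene targeted, had log2 ratios of -0.84, -0.57, -0.59 and -0.26 in replicates 1 to 4 against wt cells, and was called lower (mean -0.56, limma adjusted p = 0.000472). Against siScramble cells its values were -0.58, -0.29, -0.12 and -0.01, and the mean of -0.25 did not pass the threshold (adjusted p = 0.143). The lowering of the target was therefore near 0 in replicate 4 of that comparison. Of the thyroid follicular markers, 12 of 14 listed genes were on the array and 11 were well above background on all arrays of every condition, including *Tg* and *Slc5a5*. By contrast *Alb*, *Ttr*, *Serpina1*, *Tat* and *Cps1*, markers of hepatocytes, were above background on no array, while *Hnf4a* and *Apoa1* were on most. The epithelial keratins *Krt8*, *Krt18* and *Krt19* were at background on nearly all arrays. Against wt cells 10 thyroid markers were called lower and 1, *Slc26a4*, higher, and against siScramble cells *Tg* alone was called lower; the part of this wider shift in the values below was not tested. Of the epithelial markers above background on all arrays, *Cdh1* was called higher against wt cells and *Cldn3* was not called. Of the markers of other cells at this level, *Cd68* (leukocyte) was called higher against wt cells. *Cd14* (leukocyte) and *Col1a2* (fibroblast) were not called, and no endothelial marker reached this level.

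Most P450 genes gave no signal in these cells, whereas most aldehyde dehydrogenase and glutathione transferase genes did. A gene was taken as above background when its best probe was flagged well above background on all 8 arrays in the channel that held the condition. In wt cells this held for 37 of 104 members (35.6%), against 58.1% of all genes with a symbol. The counts were 35 in siScramble cells, and 36 and 33 in si*Pax8* cells on the arrays with wt and with siScramble cells. By family, 11 of 55 P450 genes, 9 of 12 aldehyde dehydrogenases, 11 of 15 glutathione transferases, 4 of 11 sulfotransferases and 2 of 11 UDP-glucuronosyltransferases were above background in wt cells.

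**Figure D1:**
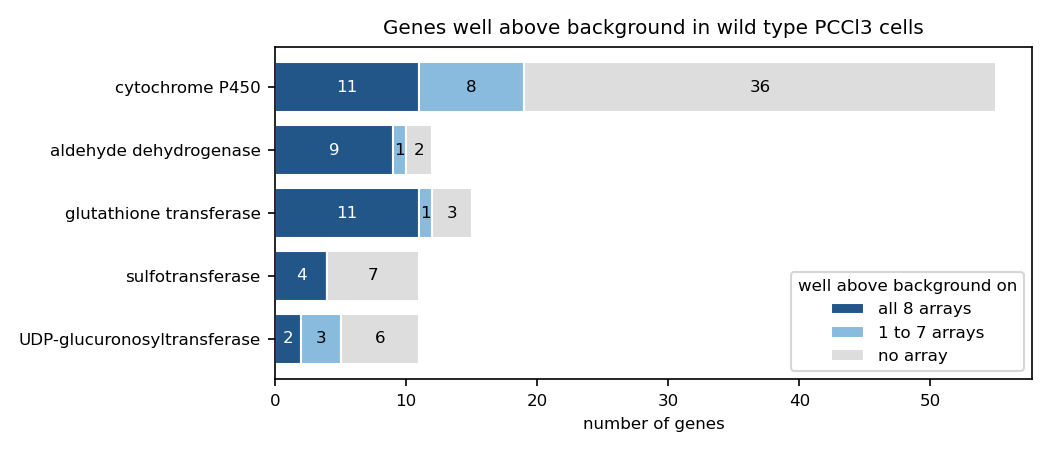
Number of genes of each family (horizontal axis) whose best probe was well above background in wt PCCl3 cells on all 8 arrays, on 1 to 7 arrays, or on no array. Aldehyde dehydrogenases (9 of 12) and glutathione transferases (11 of 15) were mostly above background, whereas 36 of 55 cytochrome P450 genes were on no array.

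The P450 genes above background in wt cells were *Cyp20a1*, *Cyp26a1*, *Cyp26b1*, *Cyp27a1*, *Cyp27b1*, *Cyp2c11*, *Cyp2d4*, *Cyp2f4*, *Cyp3a9*, *Cyp4f5* and *Cyp4f6*. They include both retinoic acid hydroxylases of the array (*Cyp26a1* and *Cyp26b1*), the mitochondrial sterol hydroxylase *Cyp27a1* and *Cyp27b1*, which makes the active form of vitamin D. *Cyp1a1*, *Cyp1a2* and *Cyp1b1*, the classical targets of the aryl hydrocarbon receptor, were on no array of any condition, as were *Cyp2e1*, *Cyp3a2* and the bile acid enzyme *Cyp7a1*. *Cyp26a1* lay near the limit of detection: it was above background on all 8 arrays in wt cells, but on 6 in siScramble cells and on 7 and 6 in si*Pax8* cells. In the other families, *Aldh1a2*, *Aldh1a3*, *Gstm3*, *Gstm5*, *Sult1e1*, *Sult2a6*, *Ugt1a1* and *Ugt2b7* were on no array, so that of the retinal dehydrogenases *Aldh1a1*, *Aldh1a2* and *Aldh1a3* only the first had a signal. For the 67 members above background on all arrays of no condition, log2 ratios against wt cells ran from -0.18 to 0.07, and 1 of them, *Cyp2d5*, was called lower (-0.18 ± 0.04, SD, n = 4, adjusted p = 0.00197). *Cyp2d5* was above background on 6 of 8 arrays in wt cells and on 1 in si*Pax8* cells, so the size of its change is not measured: it was -1.41 with the signals processed by Agilent's software. Its call was also lost without replicate 2, 3 or 4 and with si*Pax8* in Cy3 only.

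Against wt cells, si*Pax8* cells had lower values of 12 members and higher values of 2, at an adjusted p below 0.005 for each probe of a gene. The lower set comprised 3 aldehyde dehydrogenases, 3 P450 genes, 2 glutathione transferases, 2 sulfotransferases and 2 UDP-glucuronosyltransferases. Over all genes with a symbol, 9.46% were called lower and 7.26% higher in this comparison. Over all members, most of them without a steady signal, the share called lower was thus near this background, and that called higher below it. Among the 37 members above background, 11 were called lower, a larger share than the 16.0% of all genes above background. Only 2 of the 37 were called higher, a smaller share than the 12.1% of all genes above background. The median log2 ratio of these members was -0.04, against -0.02 for all genes above background.

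The largest decrease was that of *Aldh1a1*, which oxidizes retinal to retinoic acid. In these bulk samples fewer cells of a type and less RNA per cell cannot be told apart. Log2 ratios of *Aldh1a1* were -1.26, -1.11, -1.17 and -1.26 in replicates 1 to 4, a mean of -1.20 ± 0.07 (SD, n = 4) or 43.6% of the wt level (adjusted p = 1.17e-07). All 4 replicates lay close together and far from 0. Against siScramble cells the values of *Aldh1a1* were -0.23, -0.24, -0.16 and -0.28, a much smaller decrease of 0.23 ± 0.05 that passed the threshold narrowly (adjusted p = 0.00483). This second call rested on a dye orientation: the mean was 0.02 with si*Pax8* in Cy5 and -0.48 with si*Pax8* in Cy3, while against wt cells both orientations were clearly negative (-0.95 and -1.45). Retinoic acid is removed by *Cyp26b1*, which was also lower against wt cells, with log2 ratios of -0.42, -0.34, -0.39 and -0.53 (mean -0.42 ± 0.08, adjusted p = 4.14e-05). Against siScramble cells the replicates of *Cyp26b1* lay on both sides of 0, with a mean of 0.01 ± 0.06 (adjusted p = 0.883). *Cyp26a1*, the other retinoic acid hydroxylase, had means of -0.04 and -0.03 and passed the threshold in neither comparison.

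*Sult1b1*, a sulfotransferase that accepts thyroid hormones, was the second most lowered member, and it was measured by 2 probes. One probe gave -0.96, -1.16, -1.17 and -1.15 in replicates 1 to 4 against wt cells, and the other -0.65, -0.72, -0.70 and -0.76. Both probes were below 0 in every replicate and both passed the threshold (means -1.11 and -0.71, adjusted p = 2.8e-07 and 7.19e-07). Against siScramble cells *Sult1b1* averaged -0.26 ± 0.09 over the probes, below 0 in all 4 replicates but with adjusted p of 0.00933 and 0.0108. A limma fit of the 8 single arrays with a replicate block called *Sult1b1* lower there (adjusted p = 0.00223), and *Cyp2f4* (adjusted p = 0.000876), while *Aldh1a1* lost its call (adjusted p = 0.0993). The within-block correlation of that fit was -0.115, so dye-swapped arrays of a replicate did not count as 1 value. It called 220 of all genes lower, against 117 in the main fit. *Sult2b1*, which sulfates cholesterol and pregnenolone, was lower against wt cells, with values of -0.36, -0.28, -0.22 and -0.26 (adjusted p = 0.000212). It was above background on all 8 arrays in wt cells, but on 7 in siScramble cells and on 4 in si*Pax8* cells hybridized with them, so its ratio against siScramble cells (-0.06 ± 0.05) is poorly measured. *Sult1d1*, which sulfates catecholamines, had a mean of -0.08 in the wt comparison and -0.09 in the siScramble comparison, with replicates on both sides of 0.

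The sequences around the starts of *Aldh1a1* and *Sult1b1* are shown because these genes had the largest decreases. They hold none of the words searched for in all promoters, which are described with the glutathione transferases. Both are taken from RefSeq (assembly GRCr8), from 250 bases before to 50 bases after the start of the gene, in the direction of transcription.
*Aldh1a1* (chr1:227537370-227537669, plus strand): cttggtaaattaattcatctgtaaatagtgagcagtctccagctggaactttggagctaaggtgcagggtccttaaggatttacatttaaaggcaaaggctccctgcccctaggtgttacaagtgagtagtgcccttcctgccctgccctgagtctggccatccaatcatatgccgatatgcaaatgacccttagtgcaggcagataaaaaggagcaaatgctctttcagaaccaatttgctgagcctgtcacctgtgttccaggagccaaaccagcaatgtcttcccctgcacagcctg
*Sult1b1* (chr14:20771667-20771966, plus strand): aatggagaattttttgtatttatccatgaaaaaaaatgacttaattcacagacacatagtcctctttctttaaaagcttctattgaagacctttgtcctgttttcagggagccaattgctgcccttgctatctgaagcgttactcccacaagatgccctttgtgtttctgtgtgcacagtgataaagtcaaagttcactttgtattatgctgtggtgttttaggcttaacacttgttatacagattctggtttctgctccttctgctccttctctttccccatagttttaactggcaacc

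The remaining decreases against wt cells were at most 0.43 on the log2 scale used here. *Gstm1* had values of -0.52, -0.42, -0.35 and -0.45 (mean -0.43 ± 0.07, adjusted p = 2.45e-05), and its neighbour *Gstm2* -0.46, -0.23, -0.18 and -0.17 (mean -0.26 ± 0.14, adjusted p = 0.00367). Both encode glutathione transferases of the mu class. *Cyp2f4* was lower by 0.28 ± 0.08 (adjusted p = 0.000418) and had -0.23 ± 0.06 against siScramble cells (adjusted p = 0.00581), with all 8 values below 0. *Aldh3b1*, which oxidizes lipid-derived aldehydes, was lower by 0.26 ± 0.09 (adjusted p = 0.000765), but its dye orientations differed, with -0.52 and -0.01. They differed in the same direction against siScramble cells. *Aldh16a1* had a mean of -0.20 ± 0.09 (adjusted p = 0.00388), and its direction turned with si*Pax8* in Cy3 alone (0.02). Its orientations too differed in the same direction against siScramble cells. Of the UDP-glucuronosyltransferases, *Ugt1a6*, which glucuronidates planar phenols, had -0.28, -0.17, -0.34 and -0.13 (mean -0.23 ± 0.10, adjusted p = 0.00235). *Ugt1a2* averaged -0.22 ± 0.01 over its 2 probes, of which the weaker gave an adjusted p of 0.00385. The *Ugt1a* genes share their last exons, and the *Gstm*, *Gsta* and *Cyp2d* genes are close in sequence, so a probe may have bound transcripts of more than 1 of them, and the probes' sequences were not used here.

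Higher values against wt cells were found for *Gstm7* and *Cyp27a1*. *Cyp27a1* had log2 ratios of 0.45, 0.46, 0.32 and 0.30 (mean 0.38 ± 0.09, adjusted p = 8.39e-05). The same gene gave 0.35, 0.19, 0.21 and 0.07 against siScramble cells, above 0 in all replicates without passing the threshold (adjusted p = 0.0311). *Gstm7*, of the mu class too, had 0.30, 0.39, 0.29 and 0.33 (mean 0.33 ± 0.05, adjusted p = 6.33e-05). Its values against siScramble cells were 0.31, 0.37, 0.26 and 0.40, and it was called higher there as well (mean 0.34 ± 0.06, adjusted p = 0.00142). *Gstt2* averaged 0.32 ± 0.15 but is not counted, since 1 of its 2 probes had an adjusted p of 0.00628. Likewise 1 of 2 probes of *Cyp2d4* passed (-0.20, adjusted p = 0.0011), and the other was above background on no array.

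Under alternative processing, 4 of the 14 calls against wt cells were kept under all 15 settings, namely *Aldh1a1*, *Sult1b1*, *Cyp26b1* and *Sult2b1*. The number of members called lower fell from 12 to 6 without replicate 2 and to 7 without replicate 3. Over all genes with a symbol it fell from 842 to 571 and 475. With the signals processed by Agilent's software the log2 ratio of *Sult1b1* was -1.54 rather than -0.91, that of *Sult2b1* -1.22 rather than -0.28, that of *Cyp26b1* -0.99 rather than -0.42, that of *Gstm1* -0.96 rather than -0.43, that of *Cyp2f4* -0.65 rather than -0.28 and that of *Ugt1a6* -0.44 rather than -0.23. By construction, the offset of 50 added in the background correction here draws ratios of dim spots toward 0.

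**Figure D2:**
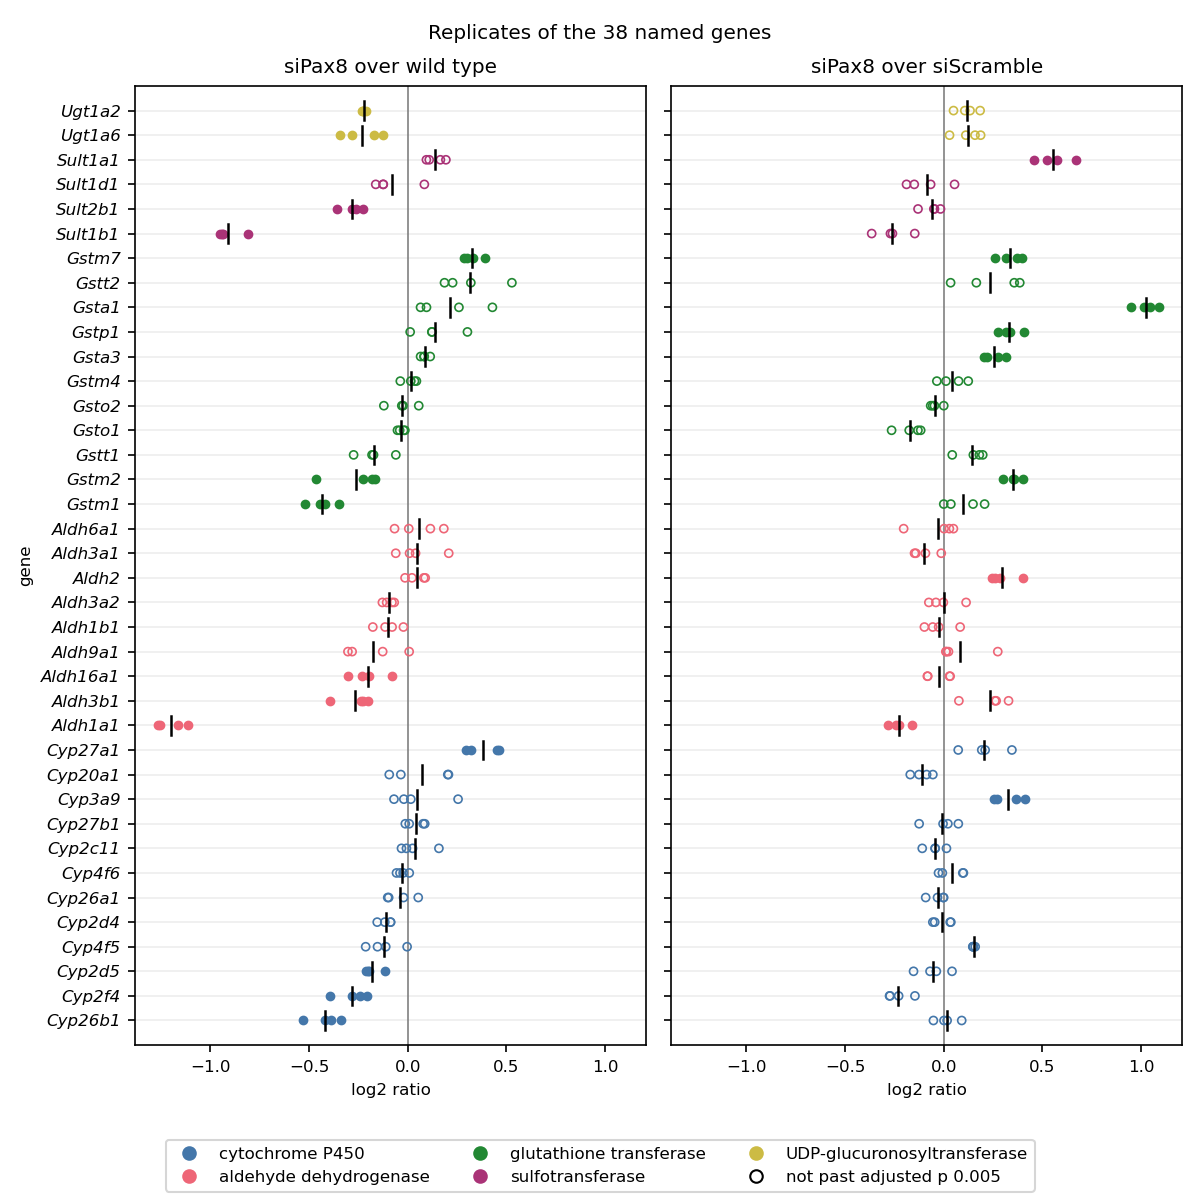
Log2 ratios of si*Pax8* over wt cells (left) and over siScramble cells (right) for the 38 named genes, coloured by family, with a point for each of 4 replicates and a bar at their mean. Filled points mark genes past an adjusted p of 0.005: *Aldh1a1* and *Sult1b1* lie farthest to the left against wt cells, and *Gsta1* and *Sult1a1* farthest to the right against siScramble cells.

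Against siScramble cells the pattern was another one: 8 members were higher in si*Pax8* cells and 1, *Aldh1a1*, was lower. Of the 8, 5 were glutathione transferases, with *Sult1a1*, *Aldh2* and *Cyp3a9* as the others. Over all genes with a symbol, 1.67% were called higher and 1.31% lower in this comparison. Among the 35 members above background, 8 were higher and 1 lower, against 2.92% and 2.30% of all genes above background. The median log2 ratio of these members was 0.04, against -0.01 for all genes above background, and that of the 11 glutathione transferases was 0.24.

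*Gsta1*, an alpha class glutathione transferase, showed the largest increase. Its log2 ratios against siScramble cells were 1.04, 0.95, 1.01 and 1.09, a 2.03-fold higher level in si*Pax8* cells (mean 1.02 ± 0.06, adjusted p = 3.59e-05). Against wt cells the same gene had 0.43, 0.07, 0.10 and 0.26 and did not pass the threshold (mean 0.21 ± 0.17, adjusted p = 0.0209). Every replicate against siScramble cells thus lay above every replicate against wt cells. *Gsta3*, of the same class, was higher by a smaller amount, with 0.20, 0.22, 0.28 and 0.31 (mean 0.25 ± 0.05, adjusted p = 0.0033). *Gsta2* was above background on 2 or 3 arrays of a condition and is not described.

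*Gstp1*, the pi class enzyme, had values of 0.31, 0.33, 0.28 and 0.40 against siScramble cells (mean 0.33 ± 0.05, adjusted p = 0.00122). Against wt cells its values ran from 0.01 to 0.30 and their mean of 0.14 ± 0.12 did not pass (adjusted p = 0.0464). *Gstm2* was called in both comparisons, in opposite directions: its values against siScramble cells were 0.30, 0.40, 0.35 and 0.35 (mean 0.35 ± 0.04, adjusted p = 0.000739), whereas all 4 against wt cells were below 0. Of the mu class genes, which lie beside each other in the genome in the order *Gstm5*, *Gstm7*, *Gstm3*, *Gstm2*, *Gstm1* and *Gstm4*, *Gstm7* was higher in each comparison. *Gstm4* passed in neither (0.01 ± 0.04 and 0.04 ± 0.07), and *Gstm1* had 0.10 ± 0.10 against siScramble cells. The omega class genes *Gsto1* and *Gsto2*, which reduce dehydroascorbate, had -0.17 ± 0.07 and -0.04 ± 0.03 there and did not pass.

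Promoters of *Gsta1*, *Gstm7* and *Gstp1*, which were called higher against siScramble cells, are printed from the same RefSeq table to show where the word TGACNNNGC, the core of the antioxidant response element bound by Nrf2, lies in them. This word is in capitals. Also in capitals is GCGTG, or CACGC where it lies on the opposite strand, the core bound by the aryl hydrocarbon receptor.
*Gsta1* (chr9:31216483-31216782, minus strand): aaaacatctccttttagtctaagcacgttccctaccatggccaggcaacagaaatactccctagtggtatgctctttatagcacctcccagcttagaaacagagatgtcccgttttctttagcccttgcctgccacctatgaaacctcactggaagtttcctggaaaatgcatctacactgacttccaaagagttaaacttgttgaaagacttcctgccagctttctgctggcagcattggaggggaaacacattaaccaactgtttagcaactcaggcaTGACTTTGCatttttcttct
*Gstm7* (chr2:198260270-198260569, minus strand): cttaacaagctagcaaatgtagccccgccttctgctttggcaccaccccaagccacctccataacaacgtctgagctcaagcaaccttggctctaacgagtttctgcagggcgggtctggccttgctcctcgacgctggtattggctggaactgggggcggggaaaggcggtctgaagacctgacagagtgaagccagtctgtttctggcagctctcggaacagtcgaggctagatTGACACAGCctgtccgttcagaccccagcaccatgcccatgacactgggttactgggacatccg
*Gstp1* (chr1:210769656-210769955, minus strand): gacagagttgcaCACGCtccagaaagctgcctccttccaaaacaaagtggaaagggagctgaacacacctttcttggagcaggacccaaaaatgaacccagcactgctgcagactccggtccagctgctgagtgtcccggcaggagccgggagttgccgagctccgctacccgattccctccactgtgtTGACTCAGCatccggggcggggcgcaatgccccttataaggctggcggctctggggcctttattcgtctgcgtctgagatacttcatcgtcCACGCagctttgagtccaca
The table had promoters for 34 of the 38 named genes, in 36 entries. Searched on both strands, TGACNNNGC was in 7 of these 36 (19.4%) and in 12.1% of all 33469 promoters of the table, and GCGTG was in 12 (33.3%) and in 29.7%. Of the 88 promoters of all members, TGACNNNGC was in 12 (13.6%) and GCGTG in 21 (23.9%). The word AAGCGTGAC, recognized by paired domains of the Pax2, Pax5 and Pax8 group and itself containing GCGTG, was in none of the 88 member promoters and in 0.0568% of all promoters. TGACNNNGC was also in *Cyp26b1* and *Aldh16a1*, called lower against wt cells, in *Aldh9a1*, which was not called, and in 1 of 2 entries of *Gsta3*, while *Gstm2*, *Sult1a1* and *Cyp3a9*, called higher against siScramble cells, lacked it. A match is only a description of these letters, and none of them was tested for binding.

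*Sult1a1*, the phenol sulfotransferase, had log2 ratios of 0.46, 0.52, 0.67 and 0.57 against siScramble cells, or a 1.47-fold higher level (mean 0.56 ± 0.09, adjusted p = 0.000416). Against wt cells it had 0.17, 0.09, 0.19 and 0.11, positive throughout but with an adjusted p of 0.00795. *Sult1b1* and *Sult1a1*, both of the SULT1 family, thus had means of opposite sign in both comparisons. *Aldh2*, the mitochondrial enzyme that clears acetaldehyde, had 0.24, 0.29, 0.26 and 0.40 (mean 0.30 ± 0.07, adjusted p = 0.00303). Its mean there was 0.45 with si*Pax8* in Cy5 and 0.14 with si*Pax8* in Cy3, and the call was lost in Cy3 only. Against wt cells the dye orientations of *Aldh2* had opposite signs (0.22 and -0.13). *Cyp3a9*, of the drug-metabolizing subfamily 3A, had 0.41, 0.25, 0.37 and 0.27 (mean 0.33 ± 0.08, adjusted p = 0.0025). The means of these genes against wt cells were 0.04 and 0.05.

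With the signals processed by Agilent's software, limma called none of the 8899 genes against siScramble cells. None of the 9 calls in this comparison could therefore be kept under all 15 settings. *Gsta1* lost its call only with those signals (1.85, adjusted p = 0.00622). With those signals the log2 ratio was 1.03 in *Sult1a1*, 0.92 in *Gsta3*, 0.61 in *Gstm7* and 0.60 in *Gstm2*. Of the 8 members called higher, 3, 1, 2 and 4 were called without replicate 1, 2, 3 and 4 respectively, and *Aldh1a1* lost its call when any one replicate was left out. Over all genes, the number called higher fell from 149 to 78, 26, 45 and 81 in the same order.

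The difference between the comparisons, the log2 ratio over wt minus that over siScramble cells, passed the threshold in 13 members, and in all of them it was negative. Since si*Pax8* cells are the numerator of both ratios, this difference is an indirect log2 ratio of siScramble over wt cells. A negative value thus places siScramble cells below wt cells, and is not by itself a measure of the silencing. Across all genes with a symbol, 2.79% had a difference past the threshold below 0 and 1.78% above 0. Of the 37 members above background, 13 had a negative difference past the threshold, against 4.70% of all genes above background, and no member had a positive one, against 3.01%. At an unadjusted p below 0.05 in limma, 4 members had a positive and 20 a negative difference. The share of all genes at that p was not counted, and among the related genes described below 1 had a positive and 13 a negative difference. The median difference of the members above background was -0.17, and 27 of 37 values were negative, whereas for all genes above background the median was 0.00 with 51.5% negative.

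The largest differences were those of *Aldh1a1* (-0.97, SE 0.05, adjusted p = 1.14e-06), *Gsta1* (-0.81, SE 0.07, adjusted p = 8.16e-05) and *Sult1b1* (-0.65, higher adjusted p of its probes 5.77e-05). These genes differ in where the change lies: *Aldh1a1* and *Sult1b1* had most of theirs against wt cells and *Gsta1* against siScramble cells. *Gstm2* (-0.61) and *Gstm1* (-0.53) followed, then *Aldh3b1* (-0.50), *Cyp26b1* (-0.43) and *Sult1a1* (-0.41). In *Aldh3b1* the replicates were all below 0 against wt cells and all above 0 against siScramble cells (0.33, 0.27, 0.26 and 0.08, adjusted p = 0.0185). The same held for both UDP-glucuronosyltransferases with a signal, with differences of -0.35 in *Ugt1a6* and -0.34 in *Ugt1a2* and means against siScramble cells of 0.12 in each.

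Smaller differences past the threshold were those of *Gstt1* (-0.31, SE 0.05, adjusted p = 0.00322), a theta class enzyme, *Cyp4f5* (-0.27, adjusted p = 0.00343), of a subfamily that hydroxylates fatty acids and leukotrienes, and *Aldh2* (-0.25, adjusted p = 0.00472). *Gstt1* and *Cyp4f5* passed in neither comparison by itself. *Gstt1* had -0.17 ± 0.09 and 0.14 ± 0.07, and *Cyp4f5* -0.12 ± 0.09 and 0.15 ± 0.01. The differences of *Aldh1a1*, *Gsta1*, *Gstm1*, *Gstm2* and *Sult1b1* passed under all 10 alternatives. Without replicate 2, 3 or 4 the number of members past the threshold was 6, 6 and 8. Over all genes, the number with a negative difference past it fell from 248 to 81, 67 and 107.

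**Figure D3:**
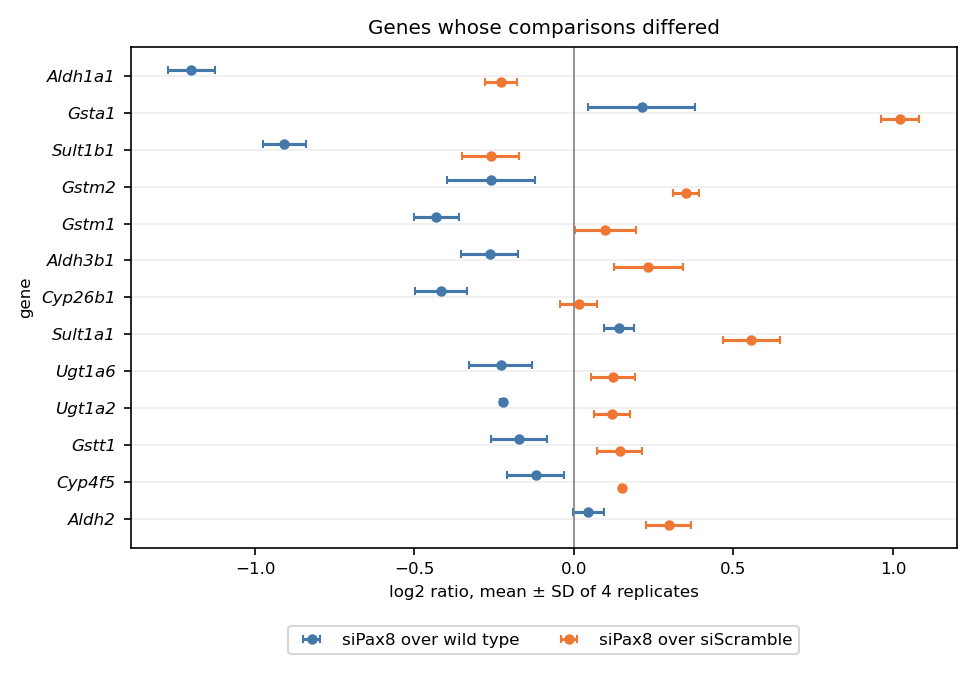
Mean log2 ratio ± SD of 4 replicates of si*Pax8* over wt cells (blue) and over siScramble cells (orange) for the 13 members whose difference passed the threshold, ordered by that difference. The blue mean lies to the left of the orange one in each gene, from -1.20 against -0.23 in *Aldh1a1* to 0.04 against 0.30 in *Aldh2*.

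The other members with a signal passed by the rule for a gene in none of the 3 tests as fitted here. They were *Aldh1b1*, *Aldh3a1*, *Aldh3a2* (fatty aldehyde dehydrogenase), *Aldh6a1* (methylmalonate semialdehyde dehydrogenase), *Aldh9a1*, *Cyp20a1*, *Cyp26a1*, *Cyp27b1*, *Cyp2c11*, *Cyp2d4*, *Cyp4f6*, *Gstm4*, *Gsto1*, *Gsto2*, *Gstt2* and *Sult1d1*. *Cyp27b1*, for instance, had means of 0.04 ± 0.05 and -0.01 ± 0.08, and *Aldh6a1* 0.06 ± 0.11 and -0.03 ± 0.12. Under single alternatives some of them did pass, most often *Gstt2* against wt cells. Its adjusted p was 0.0017 with its probes averaged first, and 0.000899 with the replicate block, a fit in which dye-swapped arrays entered singly. The widest replicate spread among the named P450 genes against wt cells was that of *Cyp20a1*, with -0.09, 0.20, -0.03 and 0.21.

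Of the genes that act with these enzymes, 62 of 75 listed were on the array and 37 were above background on all arrays of every condition. Of the 62, 5 were called higher and 7 lower against wt cells, shares near the 7.26% and 9.46% of all genes with a symbol. Against siScramble cells limma called none, while 13 higher and 7 lower values had an unadjusted p below 0.05. Among the sensors of foreign compounds, *Ahr*, *Nr1i2* (pregnane X receptor) and *Nr1i3* (constitutive androstane receptor) were above background on no array. *Nfe2l2*, which encodes Nrf2, the activator of antioxidant response elements, was higher against wt cells by 0.66 ± 0.13 (adjusted p = 1.42e-05) and had 0.18 ± 0.11 against siScramble cells (adjusted p = 0.0478). Its difference between the comparisons was 0.48 (adjusted p = 0.00167), whereas the 13 members past the threshold had negative differences. *Keap1*, which holds Nrf2 back, had 0.02 ± 0.09 and 0.10 ± 0.13.

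All 8 genes of electron supply and heme turnover were above background. *Por*, the electron donor of microsomal P450 enzymes, was lower against wt cells by 0.19 ± 0.07 (adjusted p = 0.00293), and *Fdx1*, the ferredoxin that serves mitochondrial ones such as *Cyp27a1*, was higher by 0.17 ± 0.06 (adjusted p = 0.00402). *Hmox1*, which degrades heme, missed the threshold against siScramble cells (0.37 ± 0.12, adjusted p = 0.00518). Among the other oxidizing and reducing enzymes, *Ephx1*, the microsomal epoxide hydrolase, was lower against wt cells by 0.49 ± 0.13 (adjusted p = 7.43e-05). The quinone reductases *Nqo2* (-0.35 ± 0.02, adjusted p = 2.74e-05) and *Nqo1* (-0.22 ± 0.09, adjusted p = 0.00244) were lower as well. *Aox1*, aldehyde oxidase, had -0.11 ± 0.14 against wt and 0.32 ± 0.13 against siScramble cells, and its difference missed the threshold (-0.43, adjusted p = 0.00501).

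Of 8 genes of co-substrate supply on the array, all above background in wt cells, 3 were called lower against wt cells. In that comparison 16.0% of all genes above background and 9.46% of all genes were. The 3 were *Gclc*, the catalytic subunit of glutamate-cysteine ligase (-0.24 ± 0.09, adjusted p = 0.00168), *Gsr*, glutathione reductase (-0.20 ± 0.05, adjusted p = 0.00148), and *Ggt1*, which cleaves extracellular glutathione (-0.29 ± 0.09, adjusted p = 0.000518). *Gclm* (-0.07 ± 0.04, adjusted p = 0.124) and *Gss* (-0.05 ± 0.11, adjusted p = 0.528), which also serve glutathione synthesis, did not pass. *Ugdh* and *Ugp2*, which supply UDP-glucuronic acid, did not pass. Of the other conjugating enzymes, *Nat1*, an arylamine acetyltransferase, was higher against wt cells (0.18 ± 0.07, adjusted p = 0.00347). Among the exporters *Abcc5* was higher by 0.31 ± 0.15 (adjusted p = 0.00166), and *Abcb1a*, *Abcb1b* and *Abcg2* were above background on no array.

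**Figure D4:**
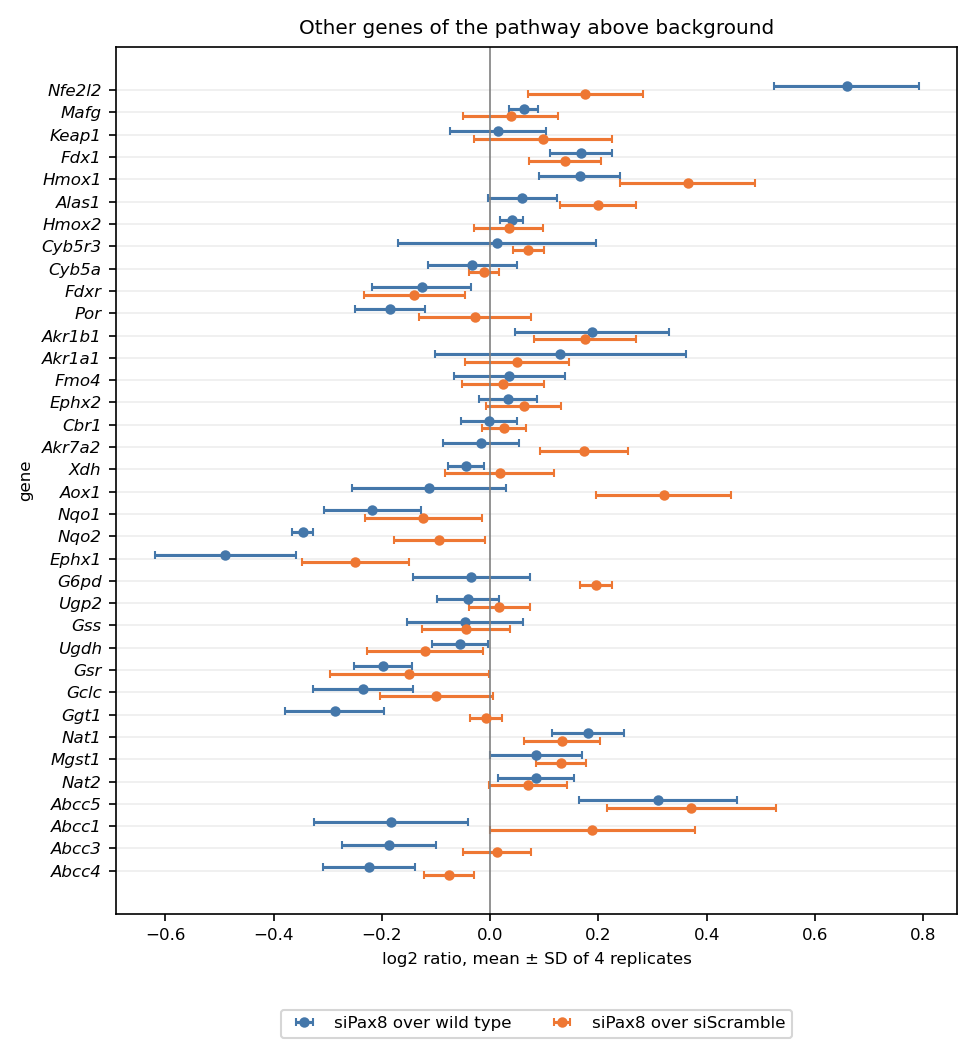
Mean log2 ratio ± SD of 4 replicates against wt (blue) and siScramble cells (orange) for 36 of the 37 related genes above background on all arrays, ordered from top to bottom as sensors, electron donors and heme, other oxidizing and reducing enzymes, co-substrate supply, other conjugation and export. *Nfe2l2* (0.66) lies farthest to the right against wt cells and *Ephx1* (-0.49) farthest to the left.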

How the data were processed

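RNA of PCCl3 cells was measured on 16 two-colour Agilent arrays. The authors deposited scanner files with intensities per spot and a table of normalized log2 ratios, which holds control over si*Pax8*; the submitters' notes and methods name loess, quantile normalization and limma, and the file headers Feature Extraction 10.1.1.1. Here, mean and background intensities were corrected by normexp (offset 50) in limma 3.58.1 under R 4.3.3, then normalized by loess with control and outlier spots at weight 0 and, without the 1639 control spots, by quantiles. Ratios were turned to si*Pax8* over control, and spots and dye swaps were averaged, giving 4 values per probe. Dye-swapped arrays of a number were correlated in their deviations (0.12 to 0.58), although replicate 2 against wt cells correlated at 0.12 with its own and at 0.2 with another number.

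Each comparison was fitted with lmFit and eBayes, with Benjamini-Hochberg adjustment across 41012 probes and a threshold of 0.005, as in the study's methods. A gene's value is the mean of its probes, and it was called when each probe passed in one direction. The difference was tested with limma on the 8 averaged ratios as separate groups. Of the probes, 10768 matched a RefSeq symbol (GRCr8, names and promoters only). Named genes were every member past the threshold in any test or above background on all 8 arrays of a condition. Members, lists and alternatives were chosen with earlier results of these data known. The alternatives varied the background correction, normalization, filter on dim probes, treatment of several probes, blocks for replicate and slide, dyes and the replicates included. Within a comparison, fits with a block or a dye term used the 8 arrays singly, and the within-block correlations ran from -0.317 to -0.115. Some genes of the marker and companion lists are not reported here but are included in the counts. Fits were tested on simulated data. Independence of the cultures rests on the labels' term biological replicate; the number of arrays limits the precision. Python 3.11.15 with matplotlib 3.10.9 drew the figures. Flags for signal above background were those deposited.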

Additional observations from a re-analysis of the deposited data

Results flagged for a closer look

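In 13 members the change against wt cells differed from that against siScramble cells by the test of the difference itself, and each difference was negative: -0.97 in *Aldh1a1*, -0.81 in *Gsta1*, -0.65 in *Sult1b1*, -0.61 in *Gstm2*, -0.53 in *Gstm1*, -0.50 in *Aldh3b1*, -0.43 in *Cyp26b1*, -0.41 in *Sult1a1*, -0.35 in *Ugt1a6*, -0.34 in *Ugt1a2*, -0.31 in *Gstt1*, -0.27 in *Cyp4f5* and -0.25 in *Aldh2* on the log2 scale.

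In 5 of 76 groups of 4 replicates, 1 replicate lay apart from the other three beyond Dixon's critical gap, and chance gives this in about 1 of 20 groups. They were replicate 4 of *Aldh9a1* against siScramble cells (0.27), and against wt cells replicate 3 of *Cyp2d5* (-0.11), replicate 1 of *Sult1b1* (-0.81), replicate 1 of *Sult1d1* (0.0845) and replicate 4 of *Ugt1a2* (-0.21). In *Cyp2d5*, *Sult1b1* and *Ugt1a2* that replicate was the one nearest to 0, and all 4 replicates had the same sign.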

How the results depend on the processing

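Of the values of called members under the alternatives, 170 of 210 kept the call against wt cells, 86 of 135 against siScramble cells and 97 of 130 for the difference. The direction turned in *Aldh16a1* against wt cells with si*Pax8* in Cy3 only (0.0197) and in *Aldh1a1* against siScramble cells with si*Pax8* in Cy5 only (0.0249). The cause was not tested for any of these changes.

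Members called higher against wt cells (2) numbered 0 with the signals processed by Agilent's software (6 at an unadjusted limma p below 0.05), 4 with loess only and with the replicate block, 5 with slide as a random block and with a term for the dye, 8 with si*Pax8* in Cy5 only and 1 with it in Cy3 only. Those called lower (12) numbered 6 with the processed signals and with si*Pax8* in Cy3 only. Leaving out a replicate gave 2 to 3 higher and 6 to 10 lower. Over all genes it gave 408 to 740 higher (646 in the main fit) and 475 to 901 lower (842). Against siScramble cells, members called higher (8) numbered 0 with the processed signals (18 at an unadjusted p below 0.05), with which no gene of the array was called. They numbered 3 with si*Pax8* in Cy5 only and 1 to 4 without a replicate. All genes called higher there (149) numbered 40 with si*Pax8* in Cy5 only and 26 to 81 without a replicate. The single member called lower became 0 with the processed signals (10 at an unadjusted p below 0.05), loess only, the authors' table, dim probes left out, si*Pax8* in Cy5 only or any replicate left out, 2 with the replicate block and with the slide block, 4 with a dye term and in one fit for both comparisons, and 3 with si*Pax8* in Cy3 only. Differences below 0 (13) numbered 8 with the processed signals, 6 to 10 without a replicate and 14 with the replicate block. Over all genes those below 0 (248) numbered 106, 67 to 183 and 342 in these settings. The counts at an unadjusted p were not made over all genes. The numbers of members above background in wt, siScramble and si*Pax8* cells stayed within 1.5 times under the other detection rules.

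Between the comparisons, deviations of same-numbered replicates correlated at 0.39, 0.17, 0.04 and 0.57, and replicate 3 correlated more with another number (0.41), so the pairing was used only in the replicate block. Dim signals limit the P450 and UDP-glucuronosyltransferase genes most, since ratios near background carry little information.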
